A study of Mus musculus with 2 samples.

Results

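Epithelial cells are held together by E-cadherin, tight junctions and desmosomes, and keratin filaments run between their desmosomes. The 10 genes described here cover these parts. They are Epcam, which encodes an epithelial cell adhesion molecule, Cdh1, which encodes E-cadherin, the keratin genes Krt5, Krt7, Krt8, Krt18 and Krt19, the claudin genes Cldn4 and Cldn7, and Dsp, which encodes desmoplakin. The genes were named as a family with results of these arrays already known, and the probe set given for each gene was chosen by its signal, as the brightest of the gene. They are 10 of 18193 genes with a probe set of a single symbol, and they were measured by 15 probe sets. Their values are therefore a description and were not tested.

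Both samples were mouse embryo fibroblasts (MEFs) from day 12.5 embryos at passage 2, grown in medium with 10% fetal bovine serum, with 1 array for wild type and 1 for Ebp1 knock out cells. The knock out mice are homozygous for a retroviral gene trap in intron 2 of Pa2g4, the gene that encodes Ebp1, and the methods give their background as mixed C57BL/6 and 129SvEvBrd. The sources used here do not say how many embryos gave each culture. With 1 array per genotype there is no spread between replicates, so no error or p-value can be given for any value.

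Keratins assemble as pairs of a type I and a type II chain. Krt8 with Krt18 and Krt7 with Krt19 are known from simple epithelia, and Krt5 from the basal layer of stratified epithelia. Fibroblasts build their filaments from vimentin and adhere through other cadherins. Transcription factors of the Zeb and Snail families, which are present in mesenchymal cells, are known to repress Cdh1 and other epithelial genes through the E-box CACCTG.

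The signals are linear intensity units scaled by the authors with MAS5, and a signal under 100 is treated as low. The median signal over all probe sets was 66.5 for the wild type array and 71.6 for the knock out array, and 57.9% and 57.1% of probe sets were low. The 5 probe sets of Pa2g4 were lower in knock out MEFs, with log2 ratios (knock out divided by wild type) from -0.90 to -0.33. Signal for the gene remained on the knock out array, where 4 of the 5 stayed over 100 and the brightest measured 1178 units against 1835 in wild type cells. The study reported no Ebp1 transcript by RT-PCR and no Ebp1 protein by Western blot in knock out MEFs. The sources used here do not place the probe sets relative to the trap, and what the remaining signal measured was not tested. All 12 fibroblast markers listed, among them collagen I and III chains, vimentin and fibronectin, were over 100 on both arrays, and 1 was over 2-fold lower in knock out MEFs. This was Pdgfra, which encodes a growth factor receptor, at 506 and 201 (-1.33), and its other probe sets were low on both arrays. The spike-ins were brighter on the knock out array, and scaling to them lowers every log2 ratio by 0.39.

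The promoter windows used for these genes were searched for an E-box, which the choice of genes did not use. RefSeq windows of 300 bases, 250 before and 50 from the gene start in GRCm38.p6, were used for 7 of the 10 genes, with 2 windows for Cldn7. Each of the 7 genes had at least 1 window with CACCTG or its reverse complement CAGGTG, against 22.6% of 27025 genes in the table. Counted by window, 7 of 8 windows held it, against 20.2% of 32851 windows. The other 3 of the 10 genes are not in these counts. The box was also found in 10 of 19 other tight junction genes with a window and 7 of 12 other epithelial surface and trafficking genes. Of the epithelial regulators 5 of 11 had it, of the other keratins 3 of 8. Among other desmosome and hemidesmosome genes it was in 2 of 4, and among other cadherin and adherens junction genes in 2 of 8. For partners and processing of Epcam it was 2 of 10 genes, and for other filament and linker genes 1 of 9. The whole windows are shown for Epcam, Krt7 and Cldn4, which were among the genes higher in knock out MEFs. The boxes are in capitals, each sequence is written 5′ to 3′ on the strand of the gene, and no other motif was searched.
Epcam, chr17:87635729-87636028, forward strand: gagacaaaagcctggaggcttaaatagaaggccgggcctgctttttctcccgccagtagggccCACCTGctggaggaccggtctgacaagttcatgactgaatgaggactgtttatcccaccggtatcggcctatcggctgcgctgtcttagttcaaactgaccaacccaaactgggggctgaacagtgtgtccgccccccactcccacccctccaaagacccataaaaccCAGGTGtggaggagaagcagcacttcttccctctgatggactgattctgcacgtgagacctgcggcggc
Krt7, chr15:101412153-101412452, forward strand: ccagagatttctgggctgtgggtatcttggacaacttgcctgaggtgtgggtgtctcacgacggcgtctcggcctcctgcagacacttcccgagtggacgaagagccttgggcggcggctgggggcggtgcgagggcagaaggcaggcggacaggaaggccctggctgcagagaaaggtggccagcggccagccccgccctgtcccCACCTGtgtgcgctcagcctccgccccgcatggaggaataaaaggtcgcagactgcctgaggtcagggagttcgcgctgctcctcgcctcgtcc
Cldn4, chr5:134946885-134947184, reverse strand: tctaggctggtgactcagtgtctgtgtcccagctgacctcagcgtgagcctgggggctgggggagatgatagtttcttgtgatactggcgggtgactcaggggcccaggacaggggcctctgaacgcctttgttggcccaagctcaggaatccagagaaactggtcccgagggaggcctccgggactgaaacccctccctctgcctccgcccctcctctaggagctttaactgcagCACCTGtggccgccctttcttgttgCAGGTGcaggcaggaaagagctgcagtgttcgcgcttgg

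In Epcam the boxes began 187 and 19 bases before the gene start, in Krt7 44 bases before it. In Cldn4 they began 14 bases before it and at base 12 of the gene. The other genes are shown with 12 bases on either side of the box, to compare the flanks. In Krt5 and Krt18 the box began 128 and 214 bases before the gene start. The second of the Cldn7 windows had boxes 97 and 57 bases before its start and the first had none. The box of Dsp began at base 4 of the gene.
Krt5: cacaccactgtgCAGGTGtgctgggtgagc
Krt18: aggggctaacacCACCTGctatcctttgtg
Cldn7, farther box: tttcttcctcttCACCTGgacgaggagggg
Cldn7, nearer box: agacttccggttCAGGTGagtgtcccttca
Dsp: gaagaagccgacCAGGTGtggcctgggcgc
The flanks differed between the genes, and a match to these 6 letters does not show that a factor bound there.

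**Figure D1:**
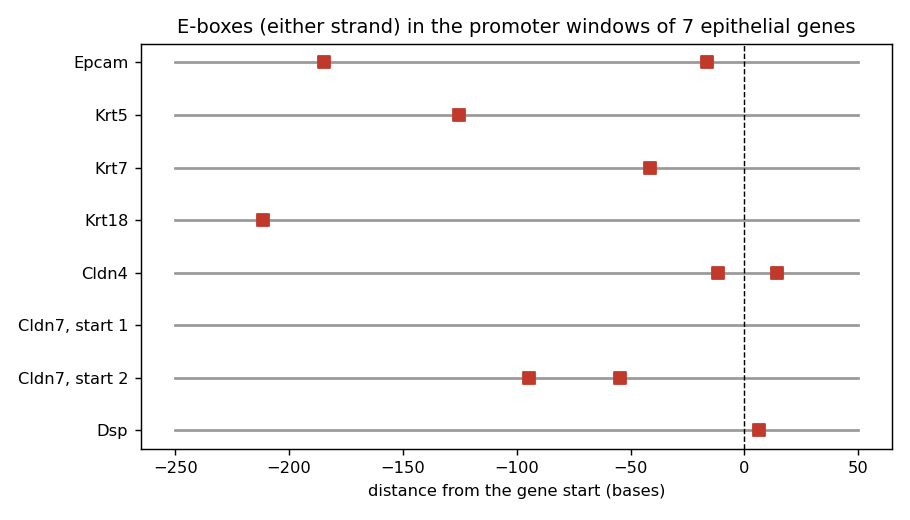
Positions of the E-box, on either strand, in the 8 promoter windows of 7 of the epithelial genes, with the distance from the gene start in bases on the horizontal axis. Grey lines are the windows, red squares the 10 boxes and the dashed line the gene start. A box lies in 7 of 8 windows, and the first Cldn7 window has none.

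Epcam had the highest signal of its 2 probe sets at 174 in wild type cells and 1350.5 in knock out cells (log2 ratio 2.96, 7.78-fold). Its other probe set was dim on each array, at 5.81 and 4.07 (-0.51). The bright probe set carries the suffix _x_at, which marks probes that can pair with transcripts of other genes. The probe sets of Epcam thus differed in direction, and whether the bright one measured Epcam was not tested. The nearest genes on either side of Epcam on chromosome 17 with a probe set were not shifted in the same way. Mcfd2 was 2415 and 2083, Ttc7 164 and 141, Msh6 449 and 387 and Fbxo11 712 and 609, with log2 ratios from -0.23 to -0.21. Stpg4 and Kcnk12 were low on both arrays.

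The genes whose signals on the 2 arrays lay closest to those of the bright Epcam probe set were Grb14 (251 and 996), Cxcl5 (286 and 1063), Cyp26b1 (203 and 699.6), Topors (336 and 1150.4) and Gm2115 (289 and 808). Their distances were 0.69 to 1.04 on the log2 scale, taken over both arrays. None of them is an epithelial structural gene of the lists used here.

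Of the keratins, Krt7 and Krt19 were higher in knock out MEFs. Krt7, a type II keratin, measured 49.98 units in wild type cells and 214 in knock out cells (log2 ratio 2.10). Since the wild type signal was low, this is at least 2.14-fold when that signal is set to 100. Krt19, the smallest type I keratin, had 88.0 and 197 (1.17), at least 1.97-fold. With scaling to the spike-ins Krt19 was within 2-fold (0.78) and Krt7 was not (1.71). Both genes have 1 probe set.

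Krt8 and Krt18, partners in the filaments of simple epithelia, differed little and stayed low. Krt8 had 73.5 and 91.9 (log2 ratio 0.32), and Krt18 had 89.4 and 99.7 (0.16). Both ratios fall below 0 with scaling to the spike-ins. The other probe sets of Krt8 were at 6.51 and 19.6 (1.59) and at 3.73 and 8.81 (1.24), in a range where signals scatter most. Krt5, the basal type II keratin, was the only gene of the 10 whose reported probe set was lower in knock out MEFs, at 138 and 108 (-0.35). No keratin of the 5 reached 500 units, the minimum of the study's methods.

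Among the junction genes, Cldn4 and Cldn7 were higher in knock out MEFs, while Cdh1 was near background. Cldn4, a claudin of tight epithelia, had 36.2 in wild type cells and 121 in knock out cells (log2 ratio 1.74), at least 1.21-fold. Cldn7, which binds Epcam at the cell border, had 15.5 and 58.2 (1.91), low on both arrays, so that no fold is given. Cdh1 had 11.5 and 19.5 (0.76), also low on both. Each of these 3 genes has 1 probe set.

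Dsp, which links keratin to the desmosome, was low on both arrays with each of its probe sets. The brightest had 24.8 and 55.7 (log2 ratio 1.17), the next 18.9 and 57.2 (1.60), and the dimmest on the knock out array went the other way, at 27.8 and 19.5 (-0.51). The plot of the signals shows how few of these values lie to the right of 100.

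**Figure D2:**
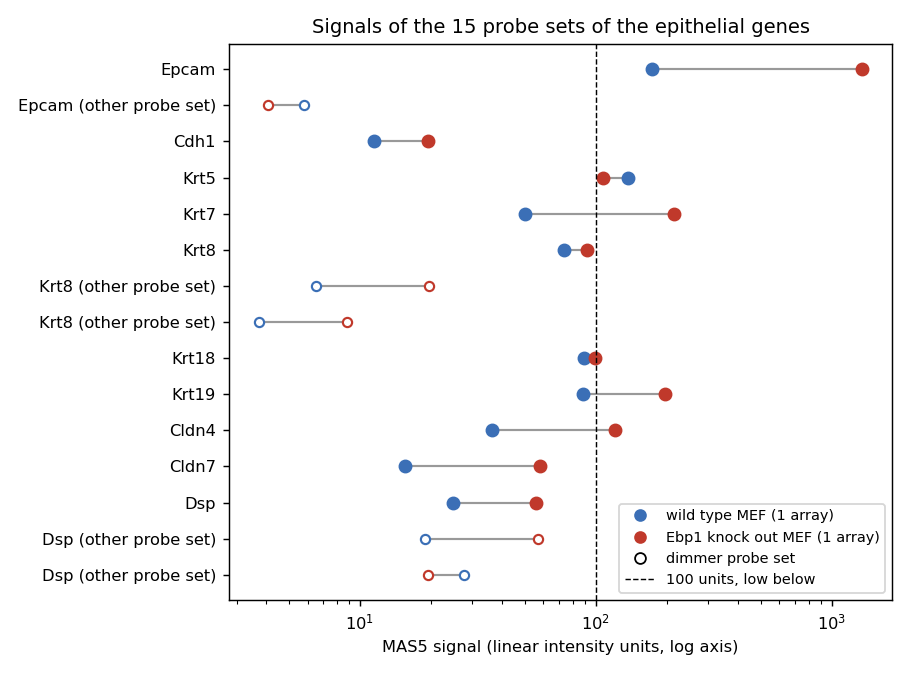
MAS5 signals of the 15 probe sets on a logarithmic axis, in linear intensity units, for 1 wild type (blue) and 1 Ebp1 knock out (red) array. Filled points are the brightest probe set of each gene, open points the others, and the dashed line marks 100. Of 15 probe sets, 12 have the higher signal on the knock out array and 10 lie under 100 on both arrays.

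Of the 10 genes, 9 had the higher signal in knock out MEFs and 1 the lower, with a median log2 ratio of 1.17, while 48.5% of all genes were higher and their median was -0.01. At any signal, 6 of the 10 were over 2-fold higher (Epcam, Krt7, Krt19, Cldn4, Cldn7 and Dsp), against 7.18% of all genes, and none was over 2-fold lower, against 5.75%. With at least 100 on 1 array, 4 were over 2-fold higher, against 1.58% of the 10553 genes that reached it, and 0 lower, against 1.93%. Krt7, Krt19 and Cldn4 reached 100 on the knock out array only, so their entry into that count required a higher knock out signal. Just under the limit was Krt18 at 99.7, and just above it Krt5 at 108 and Cldn4 at 121. With the study's minimum of 500, Epcam alone was counted, against 0.758% of 5014 genes higher, and 0 of the 10 were lower, against 1.06%.

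Ratios of dim genes scatter widely, which bears on most of these values. Over all genes the standard deviation of the log2 ratio was 0.88 at mean signals from 20 to 50, where Cldn7 and Dsp lie, and 13.4% of genes there were over 2-fold higher. At 50 to 100, the range of Cldn4, it was 0.62 with 5.40% over 2-fold higher. At 100 to 200, the range of Krt7 and Krt19, it was 0.54 with 1.95% higher. At 200 to 500, the range of Epcam, it was 0.40 with 0.89% higher.

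**Figure D3:**
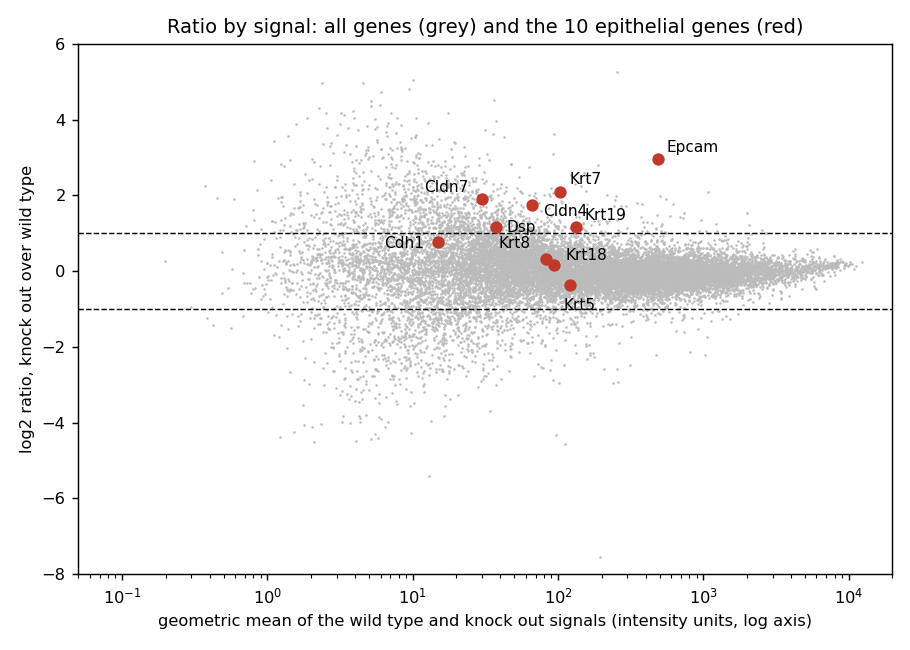
Log2 of the knock out signal divided by the wild type signal (vertical) against the geometric mean of both signals (horizontal, logarithmic, intensity units) for the brightest probe set of 18193 genes (grey) and of the 10 epithelial genes (red). Dashed lines mark 2-fold. Epcam, Krt7, Krt19, Cldn4, Cldn7 and Dsp lie above the upper line, and Cldn7, Dsp and Cdh1 lie under 50, where the grey points spread widely.

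Most other keratin, tight junction and desmosome genes were low on both arrays. The counts below are to be read beside all genes that reached 100, of which 1.58% were over 2-fold higher and 1.93% lower. Of 16 other keratins, 14 were low on both arrays, and 1 of the other 2, Krt80, was over 2-fold higher. It reached 100 on the knock out array only. Krt80, a type II keratin, had 22.8 in wild type cells and 128 in knock out cells (log2 ratio 2.49), at least 1.28-fold, while Krt10, of the suprabasal epidermis, had 114 and 134 (0.23). Krt6a and Krt79 were low, at 77.6 and 92.8 and at 43.5 and 65.8, and 2 dimmer probe sets of Krt6a had higher ratios. The filament genes that fibroblasts use were within 2-fold, with Vim, which encodes vimentin, at 9308 and 11051 (0.25), Lmna, which encodes lamin A, at 3998 and 3209 (-0.32), and Plec, which encodes the linker plectin, at 3521 and 3071 (-0.20). The ratio of Vim falls below 0 with scaling to the spike-ins, other probe sets of Lmna lay on both sides of 0, and those of Plec were above it. Of the 12 genes in this group, 8 reached 100 and none was over 2-fold apart on its brightest probe set. Other probe sets of Synm (37.5 and 167, 2.15) and Dst (144 and 320, 1.15), named after their values were seen, were over 2-fold higher.

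Of 24 other tight junction genes measured, 7 reached 100, with 1 over 2-fold higher and 0 lower (median log2 ratio -0.07). The 1 was F11r, which encodes the junctional adhesion molecule JAM-A, at 176 and 378 (1.10), and its other probe set was low on both arrays. Tjp1, the gene of the scaffold ZO-1, was 1302 and 1226 (-0.09), Cldn12 1009 and 837 (-0.27) and Pard3, a polarity gene, 723 and 689 (-0.07). Another probe set of Cldn12 was 421 and 471.

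Of 16 other genes of cadherins and adherens junctions, 13 reached 100 and none was over 2-fold apart on its brightest probe set (median 0.01, below 0 after median centring, quantile normalization, loess and spike-in scaling). Cdh11, a mesenchymal cadherin gene, was 4803 and 4019 (-0.26), and Cdh2, which encodes N-cadherin and is named after its values were seen, was 1768 and 2201 (0.32, or -0.07 with scaling to the spike-ins). The other probe set of Cdh2 was 825 and 1355 (0.72). Ctnnb1, which encodes β-catenin, was 5348 and 5230 (-0.03), with another probe set at 287 and 668. Vcl, which encodes vinculin, was 7237 and 8462 (0.23), with another at 114 and 430. Cdh3, which encodes P-cadherin and is named after its values were seen, was 297 and 277 (-0.10). By that probe set, a classical cadherin of epithelia other than Cdh1 was over 100 on both arrays. The other probe set of Cdh3 was low on both, at 43.2 and 41.8.

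Of 18 other genes of desmosomes and hemidesmosomes measured, 7 reached 100, with 1 over 2-fold higher and 0 lower (median 0.18, -0.21 with scaling to the spike-ins). Perp, which encodes a desmosomal membrane protein and is also a p53 target, was 150 and 494 (1.72). Pkp2, which encodes plakophilin 2, was 796 and 901 (0.18), Jup, which encodes plakoglobin, was 663 and 479 (-0.47) and Pkp4 was 424 and 403 (-0.07). Of the 12 genes measured for partners and processing of Epcam, 8 reached 100 and none was over 2-fold apart on its brightest probe set. Cd44 was 3344 and 3704 (0.15), with other probe sets at 297 and 691 (1.22) and at 3128 and 2715 (-0.20). Adam10, which encodes a membrane protease, was 2914 and 1670.4 (-0.80), with another probe set at 233 and 477.

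Of 19 epithelial transcription and splicing regulators measured, 6 reached 100, of which 5 had a ratio above 1 and 1 below it (median log2 ratio 0.42). Among all 10553 genes that reached 100, the ratio was above 1 for 4423. The median of the regulators was 0.24 with the minimum on both arrays and also with no minimum. Over 2-fold higher was 1 of the 6, and 0 were lower. Gata3, a gene of luminal and trophoblast cells, was 56.6 and 129 (1.19), at least 1.29-fold, and reached 100 on the knock out array only. Klf4 was 856 and 1308 (0.61), Klf5 270 and 519 (0.94) and Elf3 174 and 180 (0.05). Grhl2, named after its values were seen, had 1 of 4 probe sets over 100, at 184 and 126. Esrp1, which encodes an epithelial splicing factor and is named after its values were seen, was low at 1.59 and 1.15.

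The 6 genes of the Zeb, Snail and Twist factors were all over 100 on both arrays, and none was over 2-fold apart on its brightest probe set (median -0.21). Snai2 was 2185 in wild type cells and 1841 in knock out cells (log2 ratio -0.25), Zeb1 1291 and 1139 (-0.18), Twist1 1069 and 1039.9 (-0.04), Twist2 695 and 575 (-0.27), Zeb2 208 and 171 (-0.28) and Snai1 763 and 889 (0.22, below 0 with scaling to the spike-ins). The other probe sets of Zeb1 gave ratios above 0, and those of Zeb2 lay on both sides of it. Of 4 of these genes with a promoter window, 1 had the E-box.

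Of 18 other epithelial surface and trafficking genes, 6 reached 100, with 2 over 2-fold higher and 0 lower (median 0.74, or 0.10 with scaling to the spike-ins). The 2 reached 100 on the knock out array only, so their entry into the count required a higher knock out signal. The median was 0.49 with the minimum on both arrays and 0.25 with no minimum. Wfdc2, which encodes a secreted protease inhibitor of glandular epithelia, was 24.2 and 111 (2.20), at least 1.11-fold. Sfn, which encodes the epithelial 14-3-3 protein stratifin and is also a p53 target, was 72.4 and 166 (1.19), at least 1.66-fold. Cd24a, a surface antigen gene, was 1520.1 and 3002 (0.98), and its other probe sets gave 0.83 and 1.65. Spint2, which encodes a protease inhibitor, was 163 and 229 (0.49), and Ezr, which encodes ezrin, was 927 and 753 (-0.30), with another probe set at 516 and 799.

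**Figure D4:**
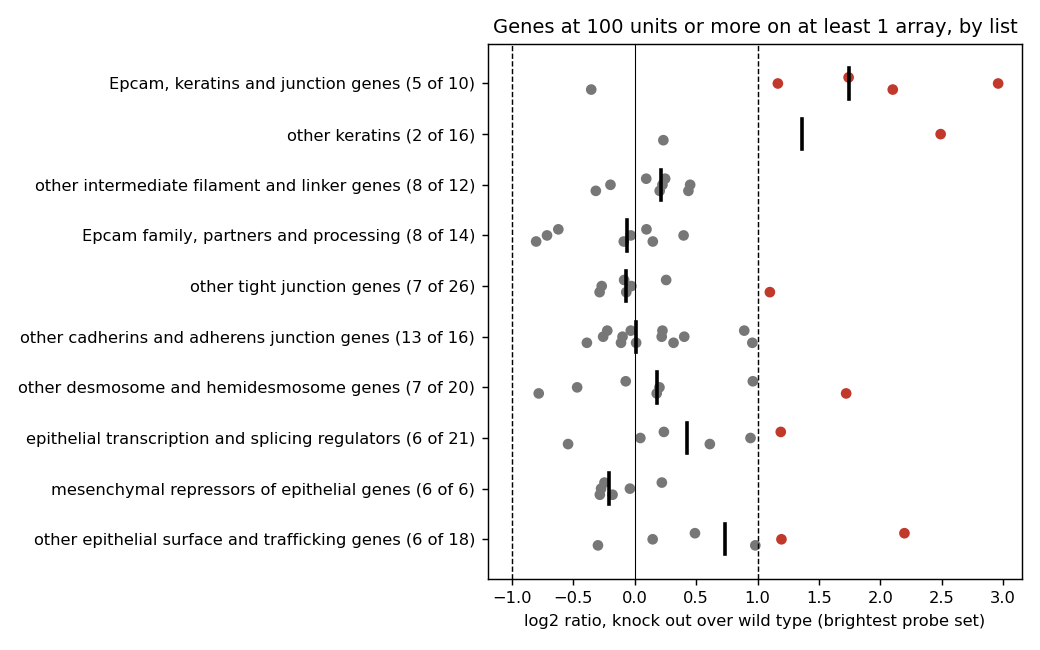
Log2 of the knock out signal divided by the wild type signal for genes with at least 100 units on at least 1 array, 1 point per gene, by list (genes shown of genes listed in parentheses). Black bars are medians, dashed lines 2-fold and red points genes over 2-fold higher. No point lies under -1, and 4 of the 5 points in the top row lie over 1.

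Markers of other cells that an embryo culture can hold were read beside these values. Of 8 mesothelial markers, 1 was over 2-fold higher, Msln, which encodes mesothelin, at 26.6 in wild type cells and 326 in knock out cells (log2 ratio 3.62, at least 3.26-fold). The brightest others were Upk1b at 132 and 109, Cldn15 at 64.2 and 65.5 and Muc16 at 30.5 and 37.2. Wt1, named after its values were seen, was at 11.04 and 6.12. The summed signal of the 8 was 348 and 615, and that of the 7 without Msln was 321 and 289. Of 8 markers of basal surface epithelium 7 were low on both arrays, Krt5 being the other, and their sum was 249.9 and 227. Only 3 of the 8 had the higher signal in knock out MEFs (median log2 ratio -0.27), among them Krt14 at 35.5 and 44.5 and Trp63 at 16.3 and 31.3. Other probe sets of Krt14 lay on both sides of 0, 1 of them at 34.5 and 4.83, and those of Trp63 were below 0. None of 10 pluripotent and germ cell or of 6 trophoblast markers measured reached 100, and the highest of them was 90.2. The part of any such cells in the values above was not tested. In a bulk sample, a few cells with much RNA of a gene cannot be told apart from many cells with little.

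The direction of most of the 10 genes did not depend on the scaling. All 10 kept their sign after median centring, quantile normalization and loess, and 8 did with scaling to the spike-ins. The choice of probe set and the treatment of low signals mattered more. Without probe sets of the suffixes _x_at and _s_at, Epcam was -0.51, through its dim probe set. With signals under 100 raised to 100, Epcam and Krt7 were the only ones over 2-fold higher, and Krt19 was at 0.98.

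**Figure D5:**
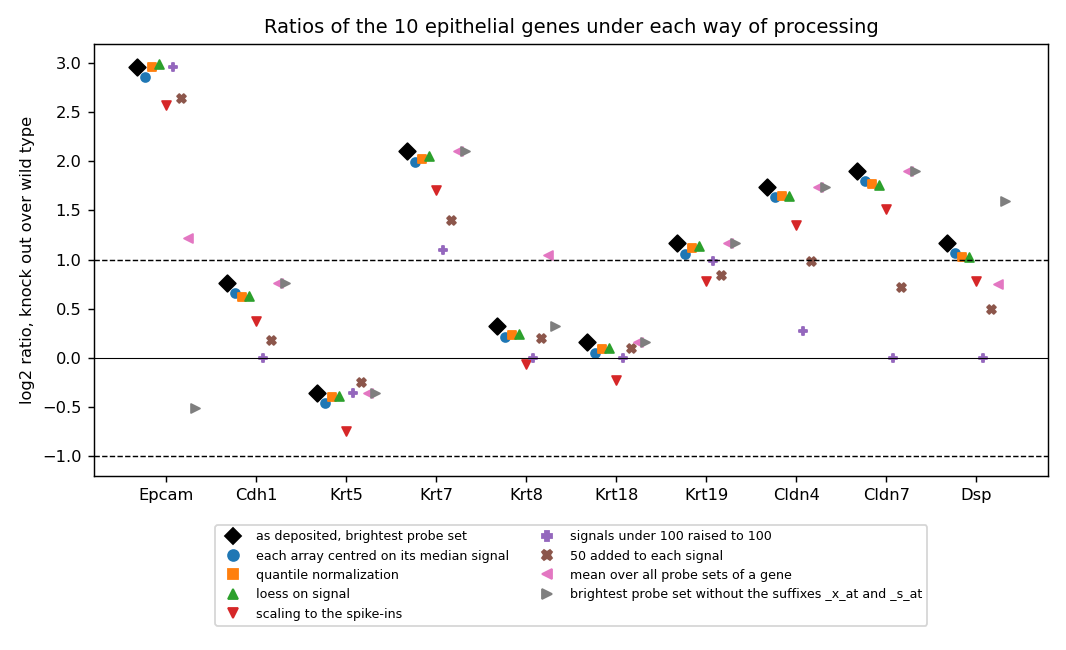
Log2 of the knock out signal divided by the wild type signal of each of the 10 genes as deposited (black diamonds) and under 8 other ways of processing. Dashed lines mark 2-fold. Epcam lies at 2.96 on its brightest probe set and at -0.51 when that probe set is left out, and Cdh1, Krt8, Krt18, Cldn7 and Dsp lie at 0 when signals under 100 are raised to 100.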

How the data were processed

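RNA of 1 wild type and 1 Ebp1 knock out MEF sample was hybridized to 1 Affymetrix array each. The authors deposited 1 signal intensity per probe set and array, in linear units, which MAS5 had scaled to 1 target value for both arrays. Of 45037 probe sets without the 64 controls, 34945 had 1 gene symbol in the platform annotation, 932 several and 9160 none. For each of 18193 genes the brightest probe set by mean log2 signal was taken, and the ratio of knock out over wild type signal was taken as log2. Signals under 100 were low, and a fold against a low signal is a bound with that signal set to 100. The threshold was 2-fold.

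The genes, the lists and the rule for named genes (in each list, up to 4 over 2-fold apart and up to 3 of the brightest others, with the 5 genes nearest to Epcam and its neighbours, and not every gene of further marker lists is printed) were chosen with earlier results of these data known. There was no test, because each genotype has a single array. The steps were also run on simulated data. The settings and outcome of that run are not given here, so it is no check on the dim signals among these genes. Alternatives were 4 other scalings, 2 treatments of low signals, 2 choices of probe set, other minimum signals (200, on both arrays, none) and fold thresholds of 1.5 and 3. Python 3.11.15, pandas 2.3.3, numpy 2.4.6, statsmodels 0.14.6 (loess fraction 0.3) and matplotlib 3.10.9 were used. Promoter windows and gene names were those of RefSeq for GRCm38.p6. No window was used for Cdh1 and Krt19, and that of Krt8 is not reported here.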

Additional observations from a re-analysis of the deposited data

How the results depend on the processing

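Values that shifted by over 1.5 times were 13 of 80 ratios of the 10 genes and 7 of 48 counts. Leaving out the suffixes _x_at and _s_at turned Epcam to -0.51, and the mean over all probe sets gave 1.22 for Epcam and 1.05 for Krt8, since their dim probe sets then count. With signals under 100 raised to 100, Cdh1, Cldn7 and Dsp were 0, Krt7 1.10 and Cldn4 0.28. With 50 added to each signal, Cdh1 was 0.18, Krt7 1.40, Cldn4 0.99, Cldn7 0.72 and Dsp 0.50. The 4 genes over 2-fold higher with a minimum of 100 were 2 under either of these, 2 with a minimum of 200 and 1 with the minimum on both arrays. The 1 gene with a minimum of 500 was 0 with the minimum on both arrays, with the mean over all probe sets and without the suffixes. The median of the 5 genes that reached 100 was 1.74. It was 1.07 with the spike-ins, 0.98 with signals raised to 100, 0.99 with 50 added and 2.53 with a minimum of 200. That of the other keratins, 1.36 over 2 genes, was 0.30 with signals raised, 0.73 with 50 added, 0.23 with the minimum on both arrays and 0.25 with none. That of other epithelial surface genes was 0.10 with the spike-ins. The sign of 14 among 109 list medians changed, for 3 through the spike-ins. Spike-in scaling shifted the median of all genes by -0.39 and median centring by -0.11. No paired analysis was possible because each genotype has a single array. These ratios are limited by low signal, as 10 of the 15 probe sets were under 100 on both arrays.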

Other observations

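Markers of further cell types were mostly low on both arrays, and of those that reached 100 only Sox21 was over 2-fold apart on its brightest probe set. Of 8 endothelial markers, 7 were low on both arrays, with Pecam1 at 12.2 in wild type cells and 9.97 in knock out cells, and Kdr, which encodes a VEGF receptor, was 101 and 156 (log2 ratio 0.63). None of 7 liver and visceral endoderm markers measured reached 100. Of these, 5 had the higher signal in knock out MEFs, and the sum of the 7 was 139 and 207. The brightest was Apoa2 at 51.0 and 60.2. Lower in knock out MEFs were Alb, which encodes albumin, at 29.4 and 23.9 and Afp, the alpha-fetoprotein gene, at 14.8 and 8.07 on its brightest probe set. Other probe sets of Afp, also low on both arrays, lay on both sides of 0. Of 6 blood cell markers measured, 4 were low on both arrays, and Csf1r and Lyz2, genes of macrophages, were 366 and 385 and 357 and 235, both within 2-fold. Of 8 skeletal muscle markers 6 were low on both arrays, among them Myod1 at 18.9 and 27.6, while Acta1, which encodes skeletal actin, was 486 and 699 (0.52). All 8 muscle markers had the higher signal in knock out MEFs on their brightest probe set, against 48.5% of all genes, with a sum of 690 and 1023. The muscle marker Des was 94.0 and 100.3 on that probe set, and its other probe set went the other way, at 127 and 55.2 (-1.20). Of 9 neural progenitor markers measured, 3 reached 100, and 2 of the 9 had the higher signal in knock out MEFs. Sox21 was over 2-fold higher on 1 of its 2 probe sets, at 41.3 and 1572. Nes was 344 and 470 (0.45), with another probe set at 247 and 208, and Tubb3 was 170 and 122 (-0.48). Sox2 (14.7 and 6.59) and Pax6 (56.5 and 32.5) were low on both arrays. Pecam1, Afp, Myod1 and Sox2 were named after their values were seen.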
